A study of Homo sapiens with 6 samples.

Results

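The 10 genes described here encode enzymes that make, recycle or break down pyrimidine nucleotides and their deoxy forms. They were taken by symbol from the deposited table of gene counts, by a rule that uses no measured value although earlier results of these data were known when the genes were picked, and all 10 of 10 were found among its 33981 genes. CAD, DHODH and UMPS form the de novo route to UMP, and RRM1 and RRM2 are the subunits of ribonucleotide reductase. TYMS, DUT and TK1 supply the thymidylate used for DNA, whereas DPYD and TYMP act in the breakdown of pyrimidine bases and nucleosides. The cells were THP-1, a monocytic line from a human acute leukemia that carries a fusion of MLL (KMT2A). The study sequenced 3 libraries of cells that received a lentiviral vector with NFIC shRNA (NFIC KD) and 3 that received scrambled shRNA. Both vectors also carried GFP, cells were infected on retronectin, and GFP-positive cells were sorted for RNA 4 days after infection. The labels name the control as scrambled shRNA, whereas the sequencing methods describe a GFP only vector, and the labels are followed here. All libraries come from a single cell line and, by the study's account, a single NFIC shRNA, sh494. Nothing states that the replicates were separate cultures, so p-values measure only the spread between these samples, which may be technical.

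Cells build UMP from small precursors, convert it to UTP and CTP, and reduce the diphosphates to deoxynucleotides when DNA is copied. Thymidylate is made from dUMP with a folate carbon or salvaged from thymidine. In proliferating leukemia cells these steps are the targets of antimetabolites such as 5-fluorouracil, hydroxyurea and methotrexate, and many of the genes are transcribed most around S phase. NFIC encodes a nuclear factor I protein, a transcription factor that binds DNA through the NFI palindrome, TTGGC and GCCAA set 5 bases apart.

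The total count was between 20369543 and 24809720 per library, and levels are given as counts per 1e6 counts (CPM). A count of 3 was taken as the floor of detection and equals 0.121 to 0.147 CPM. These limits cover counting error only. On the second principal component of log2 CPM, which carried 7.37% of the variance, scrambled replicate 2 and NFIC KD replicate 3 lay at -18.0 and -20.5, and the other libraries lay between 4.63 and 15.8. Of 10 monocytic markers, all were found in the table, and their summed level was 1364 to 1471 CPM in scrambled control and 1544 to 1722 CPM in NFIC KD. LYZ alone gave 495 to 628 CPM of it in scrambled control and 829 to 1035 CPM in NFIC KD, and the sum without LYZ was 842 to 878 CPM and 688 to 715 CPM. CD14, LYZ and ITGAM were higher, by 0.65, 0.72 and 0.99 on the log2 scale, whereas CD33, CD68, CSF1R and MPO fell by 0.97, 1.01, 0.59 and 0.26. The summed markers of T and NK cells (0.517 to 2.06 CPM), B cells (2.62 to 4.998 CPM), erythroid and megakaryocytic cells (2.72 to 8.501 CPM) and epithelial or stromal cells (2.57 to 10.7 CPM) were low in every library. CD3D was at 0 in 5 of the 6 libraries. The monocytic sum was higher with LYZ and lower without it in every NFIC KD library than in every scrambled library, each of the other sums was lower, and their part in the results was not tested. In bulk RNA, fewer cells of a kind and less RNA per cell cannot be told apart.

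The target of the shRNA was examined first. The scrambled libraries had 911, 1019 and 904 counts of NFIC and the NFIC KD libraries 399, 518 and 493, so that 50.1% of the control level remained (log2 fold change -0.99, standard error (SE) 0.072, adjusted p = 3.73e-09). Here and below, adjusted p is from edgeR's quasi-likelihood test with Benjamini-Hochberg adjustment over 19182 genes, and a gene is called at an adjusted p under 0.05. The target of sh494 is printed because it defines the treated group, and it lies in an exon of NFIC at chr19:3449042-3449062 of GRCh38.
sh494 target: gatggacaagtcaccattcaa
None of the 10 genes holds this target. The closest stretch in any of their annotated transcripts had 5 mismatches in RRM1 and between 7 and 9 in the others. If the guide is the exact complement of the target, its bases 2 to 8 pair with target bases 14 to 20, and these 7 letters occur 3 times in the canonical DPYD transcript, once in that of RRM2, 3 times in that of NFIC and in none of the other genes. The same letters occur at least once in 20.4% of canonical protein-coding transcripts, and the share that holds them 3 times was not counted. A match is a description, and whether the guide acts there was not tested.

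All 10 genes passed the filter on low counts. With NFIC KD, 3 were called higher (DPYD, RRM1 and RRM2), 3 were called lower (CAD, DHODH and DUT), and TYMP, TYMS, TK1 and UMPS were not called. Over all genes tested, 59.9% were called, 29.6% higher and 30.3% lower, so 6 of 10 is close to the share of all genes and is not a result about these genes as a group. For 5 of the 10, DPYD, RRM1, RRM2, CAD and DHODH, the libraries of the groups did not overlap, beside 65.2% of all genes tested. The median log2 fold change was 0.024 over the 10 genes and -0.011 over all genes tested. The summed level of the 10 genes was 598 to 726 CPM in scrambled control and 602 to 674 CPM in NFIC KD, and the groups overlapped. Without both libraries that stand apart, 8 of the 10 were called, 5 of them higher, because TYMP and TK1 were then called, beside 57.1% of all genes called in that fit and 28.3% called higher.

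**Figure D1:**
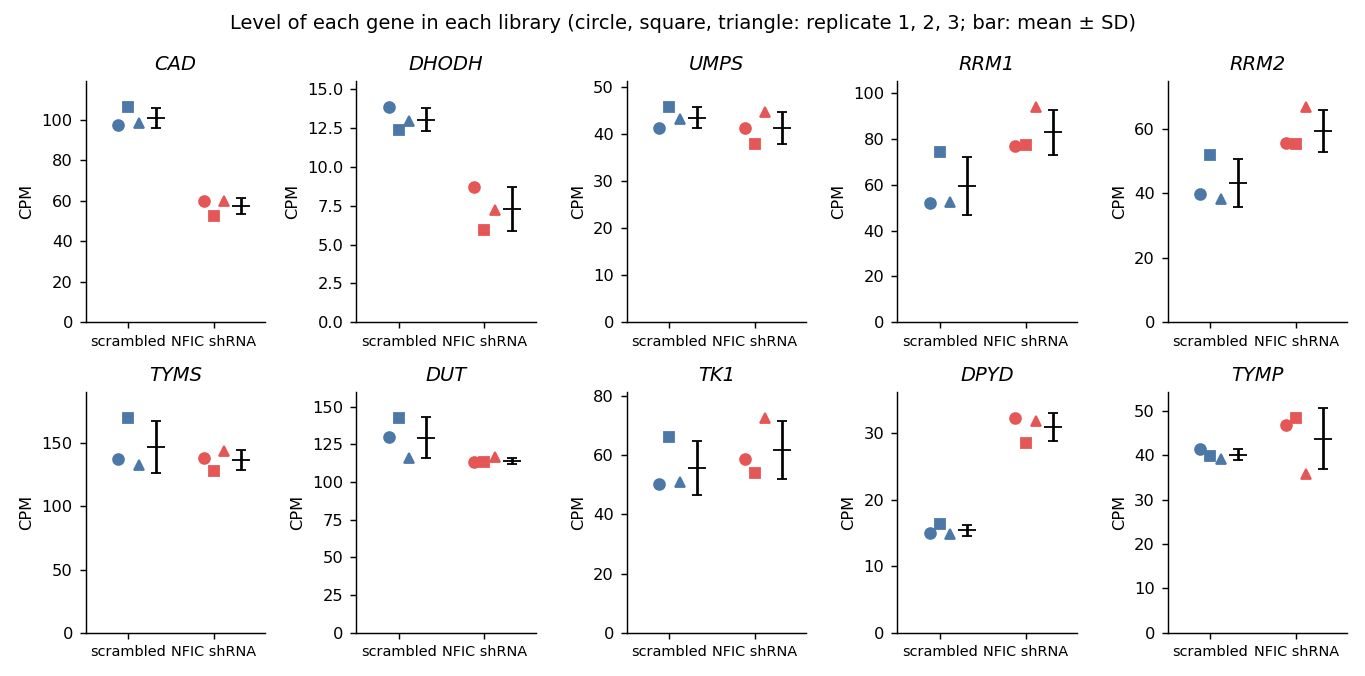
Level of the 10 genes in each library, in CPM scaled by TMM factors, on axes that start at 0. Blue symbols are the 3 scrambled libraries, red symbols the 3 NFIC KD libraries, and the bar is the mean ± SD of each group. DPYD lies at 14.8 to 16.3 CPM in scrambled control and at 28.5 to 32.3 CPM in NFIC KD, CAD and DHODH lie lower in every NFIC KD library, and RRM1 and RRM2 lie higher.

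The first enzymes of de novo pyrimidine synthesis were lower in NFIC KD and the last was not called. CAD (ENSG00000084774, chromosome 2 of GRCh38, 27217369 to 27243943) encodes the large protein that carries out the first 3 reactions of the route. The scrambled libraries had 2109, 2620 and 2113 counts and the NFIC KD libraries 1230, 1222 and 1385. Every NFIC KD library lay below every scrambled library. The level fell from 100.9 ± 4.86 to 57.5 ± 4.15 CPM (SD, n = 3 per group), with a log2 fold change of -0.81 (SE 0.063, 95% interval -0.95 to -0.68, adjusted p = 7.41e-09). DHODH (ENSG00000102967, chromosome 16, 72008588 to 72027664) encodes dihydroorotate dehydrogenase, the mitochondrial step of the route. The scrambled libraries had 300, 304 and 277 counts and the NFIC KD libraries 180, 137 and 166, again without overlap. The level fell from 13.1 ± 0.765 to 7.28 ± 1.42 CPM (SD, n = 3 per group), with a log2 fold change of -0.85 (SE 0.13, adjusted p = 1.79e-05). UMPS (ENSG00000114491, chromosome 3, 124730433 to 124749273) encodes UMP synthase, which forms UMP. The scrambled libraries had 893, 1125 and 925 counts and the NFIC KD libraries 851, 879 and 1029. The groups overlapped, at 43.4 ± 2.22 and 41.3 ± 3.36 CPM (SD, n = 3 per group), and the log2 fold change was -0.074 (95% interval -0.22 to 0.077, adjusted p = 0.385).

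The subunits of ribonucleotide reductase, the enzyme that reduces ribonucleotides to deoxyribonucleotides, both rose in NFIC KD. RRM1 (ENSG00000167325, chromosome 11, 4094707 to 4138932) encodes the large catalytic subunit. Its level was 51.9, 74.2 and 52.3 CPM in the scrambled libraries and 77.1, 77.4 and 94.0 CPM in the NFIC KD libraries. Scrambled replicate 2, the highest of its group, lay just under the lowest NFIC KD library. Means were 59.5 ± 12.8 and 82.9 ± 9.69 CPM (SD, n = 3 per group), and the log2 fold change was 0.48 (SE 0.14, 95% interval 0.14 to 0.81, adjusted p = 0.0202). The call for RRM1 was lost without scrambled replicate 3 (0.39, adjusted p = 0.0514) and without NFIC KD replicate 3 (0.38, adjusted p = 0.153). RRM2 (ENSG00000171848, chromosome 2, 10120698 to 10211725) encodes the small subunit made in S phase. Its level was 39.9, 51.9 and 38.2 CPM in the scrambled libraries and 55.7, 55.5 and 66.9 CPM in the NFIC KD libraries. As for RRM1, all NFIC KD libraries lay above all scrambled libraries. RRM2 had a log2 fold change of 0.45 (SE 0.11, 95% interval 0.20 to 0.70, adjusted p = 0.00486), and its call held in each of the 15 alternatives. RRM2B, which encodes the small subunit used outside S phase and after DNA damage, is not one of the 10 genes and is given for comparison. RRM2B rose from 31.0 ± 0.916 to 54.4 ± 2.38 CPM (SD, n = 3 per group), with a log2 fold change of 0.81 (SE 0.064, adjusted p = 1.03e-08).

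Of the genes that supply thymidylate, DUT was called lower and TYMS and TK1 were not called. TYMS (ENSG00000176890, chromosome 18, 657653 to 673578) encodes thymidylate synthase, which methylates dUMP to dTMP. Its level was 137, 170 and 132 CPM in the scrambled libraries and 138, 128 and 144 CPM in the NFIC KD libraries. The groups overlapped, with scrambled replicate 2 the highest of all. The log2 fold change was -0.10 (95% interval -0.28 to 0.079, adjusted p = 0.313), and without scrambled replicate 2 it was 0.015 (adjusted p = 0.844). DUT (ENSG00000128951, chromosome 15, 48331011 to 48343373) encodes dUTPase, which turns dUTP into dUMP and so keeps uracil out of DNA. The scrambled libraries had 2804, 3514 and 2477 counts and the NFIC KD libraries 2330, 2626 and 2690. After scaling, DUT was at 130, 143 and 116 CPM in the scrambled libraries and 113, 113 and 117 CPM in the NFIC KD libraries, and the groups overlapped. DUT had a log2 fold change of -0.18 (SE 0.065, 95% interval -0.32 to -0.043, adjusted p = 0.0240). The DUT call was lost with DESeq2 (adjusted p = 0.0586) and in 4 of the 6 fits that left out 1 library. These were the fits without scrambled replicates 1 (adjusted p = 0.0508) and 2 (log2 fold change -0.11, adjusted p = 0.137) and without NFIC KD replicates 1 (adjusted p = 0.0850) and 2 (adjusted p = 0.0593). TK1 (ENSG00000167900, chromosome 17, 78174091 to 78187233) encodes the cytosolic thymidine kinase of the salvage route. Its level was 50.2, 66.2 and 50.9 CPM in the scrambled libraries and 58.7, 54.1 and 72.8 CPM in the NFIC KD libraries. Scrambled replicate 2 and NFIC KD replicate 3 were the highest of their groups, and the groups overlapped. The log2 fold change was 0.15 (95% interval -0.15 to 0.45, adjusted p = 0.363), and it was 0.29 (adjusted p = 0.0236) without scrambled replicate 2 and 0.16 (adjusted p = 0.0289) without both libraries that stand apart. Without NFIC KD replicate 3 it was 0.016 (adjusted p = 0.919), and without scrambled replicates 1 and 3 it was 0.070 and 0.082.

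Of the breakdown genes, DPYD rose and TYMP was not called. DPYD (ENSG00000188641, chromosome 1, 97077743 to 97995000) encodes dihydropyrimidine dehydrogenase, the rate-limiting enzyme of uracil and thymine breakdown, which also inactivates 5-fluorouracil. The scrambled libraries had 325, 401 and 317 counts and the NFIC KD libraries 666, 661 and 734. The level was 15.03, 16.3 and 14.8 CPM in the scrambled libraries and 32.3, 28.5 and 31.8 CPM in the NFIC KD libraries, far apart without overlap. The fold change was 2.00 (log2 fold change 1.00, SE 0.082, 95% interval 0.83 to 1.18, adjusted p = 1.46e-08), which was the largest change in either direction among the 10 genes. TYMP (ENSG00000025708, chromosome 22, 50525752 to 50530032) encodes thymidine phosphorylase, which splits thymidine into thymine and a sugar phosphate. Its level was 41.5, 39.8 and 39.1 CPM in the scrambled libraries and 46.8, 48.4 and 35.8 CPM in the NFIC KD libraries. NFIC KD replicate 3 was the lowest of all libraries, and the other NFIC KD libraries were the highest. The log2 fold change was 0.12 (95% interval -0.076 to 0.32, adjusted p = 0.273), and without NFIC KD replicate 3 it was 0.25 (adjusted p = 0.00218). It was 0.076 without NFIC KD replicate 1 and 0.043 (adjusted p = 0.715) without NFIC KD replicate 2.

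**Figure D2:**
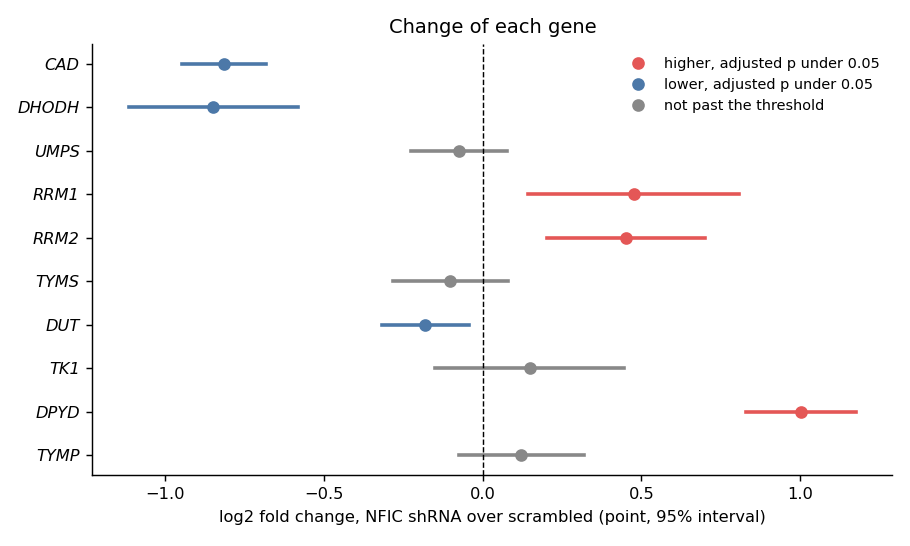
Log2 fold change of NFIC KD over scrambled control for the 10 genes, with the 95% interval from edgeR's fit, ordered by role. CAD (-0.81) and DHODH (-0.85) lie left of 0, RRM1 (0.48), RRM2 (0.45) and DPYD (1.00) lie right of it, the DUT interval ends just short of 0, and the grey genes have intervals that include 0.

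Several of the genes share exonic bases with a neighbour in the GENCODE release 44 annotation. The strand setting of the counting was not stated and the library kit named in the labels does not mark strand, so reads of a gene and of its antisense partner cannot be told apart. For TYMS, 39.9% of the exonic bases overlap ENOSF1 on the opposite strand and 7.97% overlap TYMSOS. ENOSF1 had a log2 fold change of -0.24 (adjusted p = 0.00104). For DUT, 14.5% of the exonic bases overlap an antisense gene listed as AC023355.2, which had a log2 fold change of -0.41 (adjusted p = 9.14e-04). TYMP shares 10.0% of its exonic bases with SCO2 and 8.97% with ODF3B on the same strand. ODF3B was at 8.75 CPM in NFIC KD replicate 3, where TYMP was also lowest, and at 12.8 to 16.2 CPM in the other libraries. The antisense genes DPYD-AS1 and RRM1-AS1 overlap only 1.53% and 1.49% of the exonic bases of DPYD and RRM1, and both were higher, with log2 fold changes of 0.74 (adjusted p = 0.0167) and 0.62 (adjusted p = 3.46e-04). The pseudogenes DUTP1, DUTP2, DUTP6 and RRM2P2 had at most 5 counts in any library.

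Levels of different genes were compared on the deposited FPKM scale, which divides by gene length. In scrambled control the order was TYMS (59.8 ± 8.36), DUT (34.8 ± 3.60), TK1 (29.9 ± 4.86), RRM1 (13.9 ± 2.98), CAD (11.8 ± 0.576), TYMP (11.01 ± 0.300), UMPS (5.71 ± 0.300), RRM2 (4.67 ± 0.809), DPYD (2.13 ± 0.111) and DHODH (1.86 ± 0.105), each as mean FPKM ± SD with n = 3. DUT and TK1, RRM1 and CAD, and UMPS and RRM2 overlapped between libraries, so that the order within these pairs is not resolved. In NFIC KD the order was TYMS (56.4 FPKM), TK1 (33.5), DUT (31.1), RRM1 (19.6), TYMP (12.1), CAD (6.80), RRM2 (6.48), UMPS (5.48), DPYD (4.32) and DHODH (1.05). There TK1 overlapped DUT and CAD overlapped RRM2. Several places depend on the length used. On canonical lengths the mean of TYMP was above that of RRM1 in both groups, with overlap between libraries in NFIC KD. On these lengths in NFIC KD, the mean of DUT (53.3) was above that of TK1 (43.2). There the mean of DPYD (6.97) was also above that of UMPS (6.19), with overlap between libraries for DPYD and UMPS. The deposited length of RRM2 was 9155 bases, which includes exons of long transcripts, whereas its canonical transcript has 3258 bases, and on canonical lengths RRM2 was at 13.1 ± 2.27 FPKM (SD, n = 3) in scrambled control and overlapped CAD (13.7 ± 0.668, SD, n = 3). TYMS was highest and DHODH lowest of the 10 in both groups with either length.

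Ratios of counts of 2 genes within a library do not depend on how libraries are scaled, and 8 pairs were compared. The log2 ratio of CAD to UMPS was 1.24, 1.22 and 1.19 in the scrambled libraries and 0.53, 0.48 and 0.43 in the NFIC KD libraries. The mean difference was -0.74, and the ratio itself went from 2.32 to 1.39 without overlap of the groups (p = 0.1, two-sided exact permutation test). With 3 against 3 libraries 0.1 is the smallest p this test allows, and adjusted over the 8 pairs it was 0.2. The ratio of CAD to DHODH differed by only 0.046 on the log2 scale, and the groups overlapped (exact permutation p = 0.8). The log2 ratio of RRM2 to RRM1 was -0.38, -0.52 and -0.46 in the scrambled libraries and -0.47, -0.48 and -0.49 in the NFIC KD libraries, a difference of -0.030 (exact permutation p = 0.6). RRM2 against RRM2B fell by 0.35 on the log2 scale without overlap, at the smallest p allowed. The groups were narrowly apart, with the lowest scrambled library at 0.252 and the highest NFIC KD library at 0.245, and without scrambled replicate 2 the difference was -0.19. TK1 against TYMS was higher by 0.24, or by 0.16 without NFIC KD replicate 3, and DPYD against TYMS by 1.10, also without overlap. TYMS against DUT and TYMS against TYMP differed by 0.081 and -0.20 and overlapped between groups. Of the 8 pairs, 4 did not overlap, and this test cannot give a p under 0.1 with 3 against 3 libraries.

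**Figure D3:**
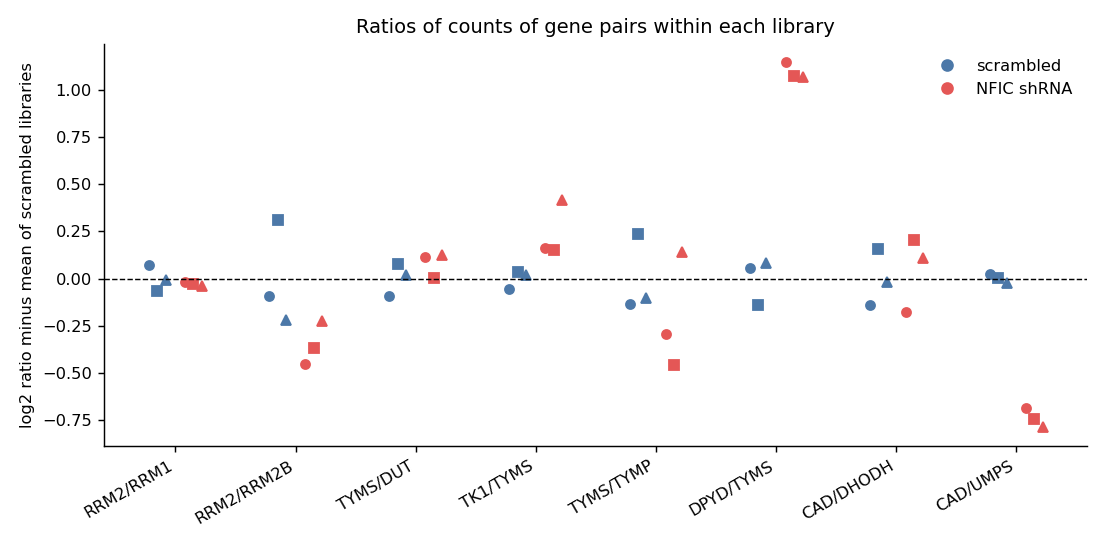
Log2 ratio of the counts of 2 genes within each library, drawn as the difference from the mean of the 3 scrambled libraries (blue; NFIC KD in red, circle, square and triangle for replicates 1, 2 and 3). CAD/UMPS lies lower and DPYD/TYMS higher in every NFIC KD library, by 0.74 and 1.10 in the mean, whereas RRM2/RRM1 and CAD/DHODH stay around the dashed line.

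Within each group the same library was the highest for several of the genes. In scrambled replicate 2, RRM1, RRM2, TK1 and TYMS were above the mean of their group by 0.34, 0.27, 0.26 and 0.22 on the log2 CPM scale. In NFIC KD replicate 3, RRM1, RRM2, TK1 and TYMS were above their mean by 0.19, 0.18, 0.25 and 0.073. DUT, DPYD, CAD and UMPS were also highest in scrambled replicate 2, by 0.15, 0.085, 0.079 and 0.076. DUT, CAD and UMPS were also highest in NFIC KD replicate 3, by 0.029, 0.066 and 0.12. Only TYMP and DHODH were highest in neither of these libraries. The median of the 15 purine genes listed below was above its group mean by 0.080 and 0.045 in the same libraries. The median of 16 S phase and G1/S genes was above its group mean by 0.24 and 0.13 in these libraries and below it in the other 4. Their summed level was 1255, 1596 and 1261 CPM in the scrambled libraries and 1453, 1391 and 1682 CPM in the NFIC KD libraries, and the groups overlapped. Of the 16 S phase genes, 5 were called higher and 3 lower, with a median log2 fold change of 0.13. Among all genes tested, 29.6% were called higher and 30.3% lower. The higher calls of the S phase list are close to that share and are not a result about the list. CDC6 and MCM7, which act in the licensing of replication origins, were higher by 0.95 and 0.34, and GMNN, which limits licensing, by 0.55. PCNA, the sliding clamp of DNA polymerase, fell by 1.31 (adjusted p = 1.04e-06), and E2F1 and CCNE1 fell by 0.33 and 0.59 on the log2 scale. Of 12 G2 and M phase genes, 10 were called higher and 0 lower, and their summed level was 1295 to 1409 CPM in scrambled control and 1818 to 2335 CPM in NFIC KD. CCNB1, AURKA and PLK1, which drive entry into mitosis, were higher by 0.83, 1.07 and 0.82. The part of these cell cycle genes in the values of RRM1, RRM2 and TK1 was not tested.

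**Figure D4:**
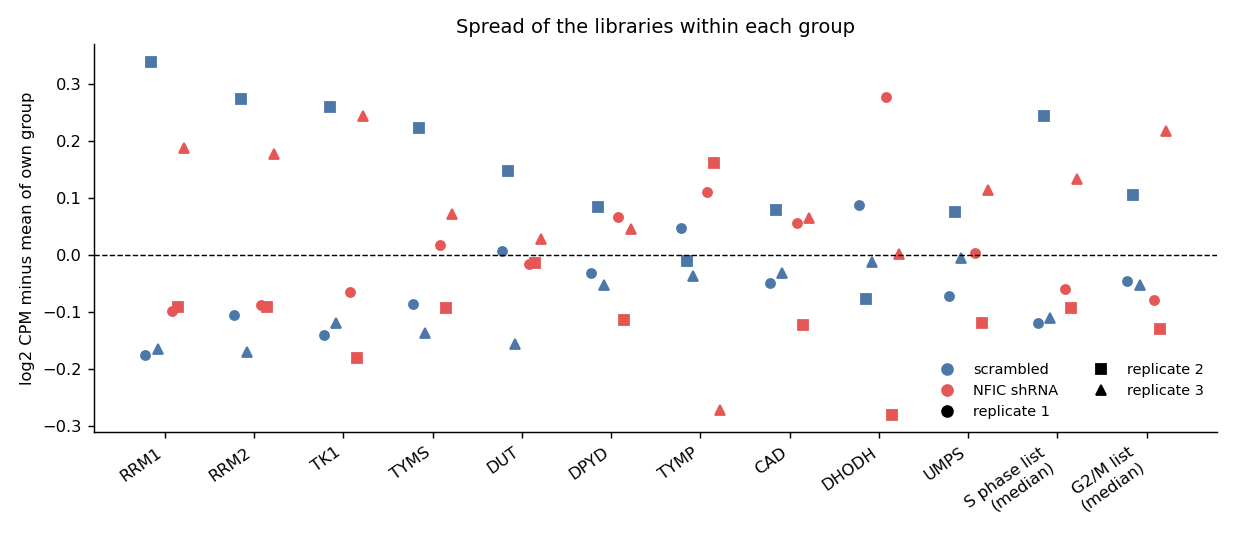
Log2 CPM of each gene in each library minus the mean of its own group, with the medians of the S phase and G2/M lists at the right. Scrambled replicate 2 (blue square) is the highest of its group for RRM1, RRM2, TK1 and TYMS, and also for DUT, DPYD, CAD and UMPS. NFIC KD replicate 3 (red triangle) is the highest of its group for the same genes except DPYD. It is the lowest of its group for TYMP.

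Promoter sequence was available in RefSeq for all 10 genes, at 17 start sites on GRCh38.p14. The 250 bases before each start were searched on both strands for TTTCGCGC and TTTGGCGC (bound by E2F proteins), CACGTG (the E-box bound by MYC), TTTGAA (the CHR element of cell cycle genes), CCAAT and the NFI palindrome, which shares the letters CCAA with CCAAT. A promoter of each called gene with a match is printed, 5′ to 3′, with each match in capitals, on either strand (CCAAT reads ATTGG and TTTGAA reads TTCAAA on the opposite strand).
RRM2, chr2:10122489-10122738, plus strand: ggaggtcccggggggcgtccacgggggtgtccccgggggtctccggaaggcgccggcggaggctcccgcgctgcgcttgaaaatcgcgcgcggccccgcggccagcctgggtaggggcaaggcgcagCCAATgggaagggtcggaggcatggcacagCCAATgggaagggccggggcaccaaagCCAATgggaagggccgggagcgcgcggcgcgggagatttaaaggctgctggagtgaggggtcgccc
RRM1, chr11:4094435-4094684, plus strand: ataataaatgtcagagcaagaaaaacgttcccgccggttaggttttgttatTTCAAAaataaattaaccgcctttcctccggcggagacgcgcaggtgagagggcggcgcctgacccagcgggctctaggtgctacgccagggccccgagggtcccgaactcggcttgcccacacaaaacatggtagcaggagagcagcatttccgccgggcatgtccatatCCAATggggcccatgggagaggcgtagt
CAD, chr2:27217119-27217368, plus strand: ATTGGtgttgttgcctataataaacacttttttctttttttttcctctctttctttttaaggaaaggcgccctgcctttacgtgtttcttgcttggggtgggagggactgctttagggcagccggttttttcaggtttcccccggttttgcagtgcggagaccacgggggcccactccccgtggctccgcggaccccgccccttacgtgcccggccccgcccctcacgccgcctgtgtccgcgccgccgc
DHODH, chr16:72008494-72008743, plus strand: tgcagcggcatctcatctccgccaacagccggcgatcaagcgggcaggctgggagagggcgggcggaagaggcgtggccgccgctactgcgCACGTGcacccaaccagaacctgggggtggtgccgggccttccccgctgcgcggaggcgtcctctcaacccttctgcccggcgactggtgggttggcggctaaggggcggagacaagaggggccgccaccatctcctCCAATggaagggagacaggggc
DUT, chr15:48331947-48332196, plus strand: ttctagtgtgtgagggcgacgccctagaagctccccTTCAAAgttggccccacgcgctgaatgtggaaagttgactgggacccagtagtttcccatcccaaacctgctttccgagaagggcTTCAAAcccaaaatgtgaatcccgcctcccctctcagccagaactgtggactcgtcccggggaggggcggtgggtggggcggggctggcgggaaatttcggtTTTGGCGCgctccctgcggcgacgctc
The RRM2 window holds CCAAT 3 times, ending 119, 89 and 62 bases before the start, and 2.93% of the 35116 promoters hold at least 3 matches. Another RRM2 start, with the window chr2:10122318-10122567, holds 1 CCAAT at its far edge and is not printed. RRM1 holds a single CCAAT and a TTTGAA on the opposite strand. CAD holds 1 match, an inverted CCAAT at the far edge of the window, and 11240 of the 35116 promoters hold a CCAAT. DHODH holds CACGTG, which 6.34% of promoters hold, and a CCAAT close to the start. For DUT, the fourth of its starts holds TTTGGCGC 20 to 27 bases upstream, beside 0.55% of promoters, and 2 inverted TTTGAA, beside 13.3%. No match to any of the searched letters was found for DPYD and TYMS. TTTCGCGC occurs in 0.439% and the NFI palindrome in 0.0285% of promoters, and neither occurs before any of the 17 starts. Only the whole palindrome was searched, so this absence does not cover TTGGC or GCCAA alone, which were not counted. Each CCAAT in the printed RRM2 window follows a g and so completes GCCAA. A match in these windows is a description and not a site.

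Other genes of the pathway were counted in lists, beside the 29.6% of all genes called higher and the 30.3% called lower. Of 11 genes that carry UMP on to UTP, CTP and the nucleoside triphosphates, 6 were lower and 1 was higher, with a median log2 fold change of -0.26. NME2 and NME4, nucleoside diphosphate kinases, fell by 0.95 and 0.71 on the log2 scale, and CMPK1, the UMP and CMP kinase, fell by 0.87. DTYMK, which phosphorylates dTMP and so follows TYMS and TK1, was higher by 0.45 (adjusted p = 1.10e-04). The summed level of this list was 972 to 1065 CPM in scrambled control and 677 to 712 CPM in NFIC KD.

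Of 9 salvage genes tested, 4 were higher and 4 lower, with a median of -0.075. CDA, which deaminates cytidine and the drug cytarabine, was at 3.84, 3.94 and 5.14 CPM in the scrambled libraries and 10.96, 13.4 and 12.7 CPM in the NFIC KD libraries. Its log2 fold change was 1.52 (SE 0.13, adjusted p = 3.84e-08). DCK, the kinase that activates deoxycytidine and cytarabine, rose from 68.1 ± 5.84 to 109 ± 8.16 CPM (SD, n = 3 per group), and UPRT and UCK1, another uridine-cytidine kinase, were higher by 0.46 and 0.31. UCK2 and UCKL1, uridine-cytidine kinases, and DCTD, which makes dUMP from dCMP, fell by 0.49, 0.55 and 0.44 on the log2 scale. Of 7 other breakdown genes tested, 3 were lower and 2 higher, with a median of -0.35. Their summed level was higher in every NFIC KD library (256 to 265 CPM) than in scrambled control (234 to 241 CPM). NT5C2 alone gave 133, 134 and 128 CPM of it in the scrambled libraries and 161, 168 and 177 CPM in the NFIC KD libraries. The higher sum therefore rests on NT5C2 and is not a result about the list. UPB1, the last enzyme of the branch that DPYD opens, fell by 2.36 (adjusted p = 9.94e-08) from 3.87 ± 0.551 to 0.745 ± 0.140 CPM (SD, n = 3 per group), and DPYS, the step between them, had at most 1 count in any library. The nucleotidases NT5C and NT5C3B fell by 0.78 and 0.99 on the log2 scale, whereas NT5E and NT5C2 were higher by 1.03 and 0.36.

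Of 11 genes that control the deoxynucleotide pool, 4 were higher and 4 lower. SAMHD1, which degrades deoxynucleotide triphosphates, was higher by 0.38 (adjusted p = 2.24e-05) and GLRX, a glutaredoxin, by 0.49. DNPH1, which splits deoxynucleoside monophosphates, was at 28.8, 32.1 and 27.5 CPM in the scrambled libraries and 6.40, 6.72 and 4.68 CPM in the NFIC KD libraries, a log2 fold change of -2.32 (adjusted p = 6.13e-11). TXNRD1, thioredoxin reductase, and DCTPP1, a dCTP pyrophosphatase, fell by 0.87 and 0.38 on the log2 scale. Of 11 folate cycle genes, 5 were lower and 1 higher. SHMT2, which loads the folate carbon in mitochondria, FPGS, which retains folates in the cell, and SLC19A1, the reduced folate carrier, fell by 0.99, 1.13 and 0.63 on the log2 scale. Of 7 carriers tested, 5 were lower and 0 higher. SLC29A1 and SLC29A2, equilibrative nucleoside transporters, fell by 1.49 (adjusted p = 1.11e-11) and 2.27 (adjusted p = 2.48e-08) on the log2 scale. SLC29A3, of the same family, was not called (log2 fold change -0.022, adjusted p = 0.871).

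For comparison, 10 of 15 genes of purine synthesis and salvage were lower and 0 higher, with a median of -0.27. The salvage genes among them were APRT, which was called lower, and HPRT1, which was not called. IMPDH2, PAICS and PRPS1, which act in GMP synthesis, the middle of the purine route and PRPP supply, fell by 0.91, 0.59 and 0.66 on the log2 scale. In the purine, kinase, carrier, folate and breakdown lists the lower calls outnumbered the higher ones, by only 3 to 2 in the breakdown list. The called genes of de novo pyrimidine synthesis, CAD and DHODH, were also lower. In the salvage list and the deoxynucleotide pool list, as for the 10 genes themselves, equal numbers were called in each direction. The lists were not compared with each other by a test.

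**Figure D5:**
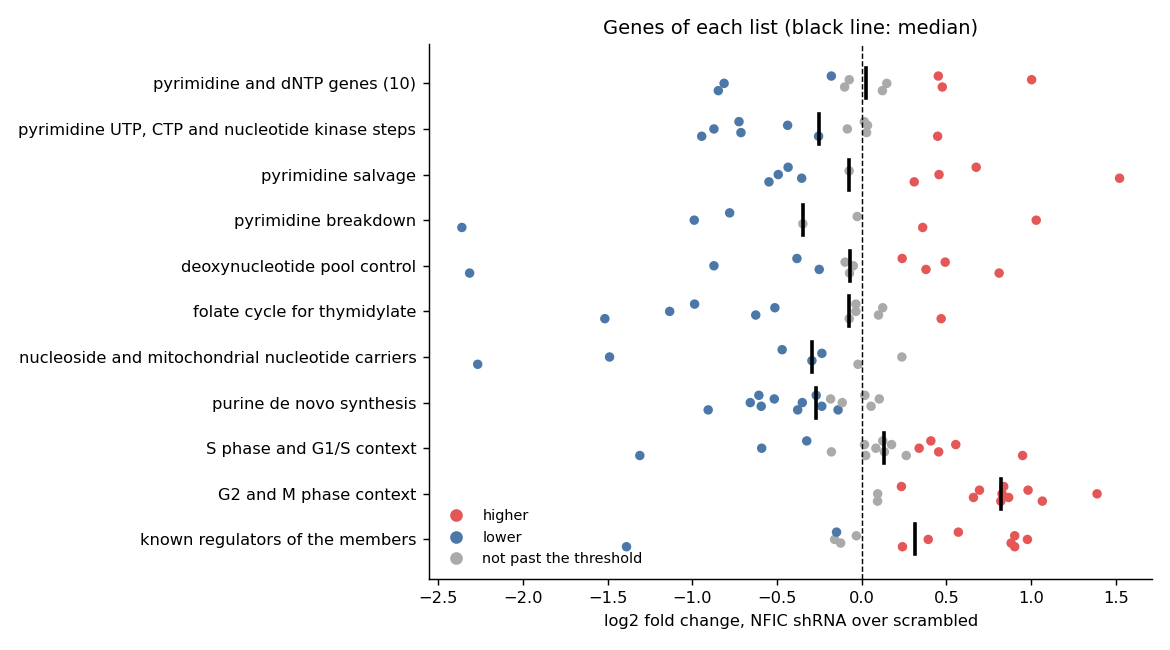
Log2 fold change of every tested gene of the 10 pyrimidine and deoxynucleotide genes and of the lists of related genes, with red for genes called higher, blue for genes called lower and grey for genes not called. The black line is the median of each list. It is 0.024 for the 10 genes, -0.27 for purine synthesis and salvage, and 0.82 for the G2 and M phase list.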

How the data were processed

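RNA of 3 scrambled and 3 NFIC shRNA libraries of THP-1 cells was sequenced in pairs of reads. The authors trimmed the reads with Trim Galore, used STAR to map them to GRCh38 and featureCounts to count them by gene (versions and strand setting not given in the sources used here), and the deposited counts are not normalized. The deposited normalized signal is the count over the size factor that DESeq2 gave the sample, and the deposited FPKM was made by the authors from it with the gene length. The columns of the authors' own comparison, which hold fold changes and p-values, were not used.

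Counts were tested with edgeR 4.0.16 (R 4.3.3; TMM, its filter on low counts, robust quasi-likelihood test, no replicate block), with Benjamini-Hochberg adjustment over 19182 genes and a threshold of 0.05. The standard error is the log2 fold change divided by the square root of F. CPM values are TMM-scaled. Lists name up to 3 called genes in each direction with the smallest adjusted p and a mean log2 CPM of at least 1. DPYS falls outside this rule and was added once its values were known. UCK1, SLC29A3, APRT and HPRT1 are also named outside this rule. Some genes chosen by the rule are not reported here. The members and lists were chosen with earlier results of these data known. Positions are from GENCODE release 44, and the deposited gene length equals its exon union for 9 of the 10 genes. Alternatives were other scalings, DESeq2 1.42.0, other filters, each library left out in turn and replicate blocks. The tests were checked on simulated data.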

Additional observations from a re-analysis of the deposited data

How the results depend on the processing

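The calls for DPYD, RRM2, CAD, DHODH and NFIC, and the absence of a call for UMPS, were kept in all 15 alternatives run. The number of the 10 genes called was between 5 and 8. DESeq2 called 5, and 8 were called, 5 of them higher against 3 with all libraries, without scrambled replicate 2 and NFIC KD replicate 3, an alternative chosen after seeing the data. The log2 fold change of TYMS, which was not called, was between -0.17 and 0.015 when each library was left out in turn, and it changed sign without scrambled replicate 2. Over the same fits that of RRM1 was between 0.38 and 0.66 and that of DUT between -0.26 and -0.11. With a replicate block by number, 6 of the 10 genes and 10983 of all genes were called, and it changed no other call among the 10 genes. Same-numbered libraries had correlations of 0.056, -0.086 and -0.045 across genes, in log2 CPM minus the group mean. With 3 libraries per group these values cannot decide whether replicates were set up in pairs. Another pairing, also chosen after seeing the data, used the numbers in the sample names. It joined replicates 1 of both groups (C1, N1) and scrambled replicate 2 (C3) with NFIC KD replicate 3 (N3). The remaining scrambled replicate 3 (C4) and NFIC KD replicate 2 (N2) share no number and formed the last pair. The study's text lists the controls as C1, C2 and C4, so the number of scrambled replicate 2, and this pairing, are uncertain. Correlations were then 0.056, 0.15 and 0.027, and TK1 was called in addition (log2 fold change 0.15, adjusted p = 0.0193 from edgeR). With upper-quartile scaling the median of all genes moved by -0.057, 4953 genes were called higher and 6503 lower (5676 and 5810 in the fit reported), and no call among the 10 genes changed. With DESeq2, 1 of 12 known regulators was lower in place of 2. The causes of these changes were not tested. Depth limits the lowest genes, DHODH at 137 to 304 counts per library most.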

Other observations

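A list held 12 genes known to regulate transcription or turnover of the 10 genes, through MYC, E2F, the retinoblastoma family and cell cycle ubiquitin ligases. With NFIC KD, 7 were higher and 2 lower in edgeR's test at a threshold of 0.05, with a median log2 fold change of 0.32. By the same test 29.6% of all genes were called higher and 30.3% lower. MYC, a transcription factor that activates CAD and other nucleotide synthesis genes, was at 217, 233 and 223 CPM in the scrambled libraries and 89.1, 91.8 and 76.4 CPM in the NFIC KD libraries, without overlap. E2F4, which acts with the pocket proteins, had a log2 fold change of -0.15 (adjusted p = 0.0240 from edgeR). CDKN1A, the p21 inhibitor of cyclin-dependent kinases, rose from 49.3 ± 1.32 to 92.2 ± 5.996 CPM (SD, n = 3 per group). FZR1, an activator of the anaphase-promoting complex, rose from 31.4 ± 1.88 to 58.7 ± 2.61 CPM (SD, n = 3 per group). E2F7, a repressor of E2F target genes, rose from 14.5 ± 2.02 to 28.6 ± 2.78 CPM (SD, n = 3 per group). The relation of these genes to the levels of the 10 genes was not tested.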
